A study of Mus musculus with 10 samples.

Results

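The genes described here are 9 genes of prostaglandin production and signalling around Ptgs2, which encodes the inducible cyclooxygenase COX-2: Pla2g4a, Ptgs1, Ptgs2, Ptges, Ptges2, Ptges3, Ptgis, Ptger2 and Ptger4. They were found by the gene name that the array files give each probe, which picked 14 of 55681 probes other than controls, and 9 of 34607 gene and transcript names. As a group they were chosen by their difference between mimic and scrambled arrays in an earlier fit of these data, so their own differences are given as a description with a standard error and carry no test. Tests are read only for other genes of the pathway.

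The cells were C2C12, an established line of mouse myoblasts that proliferates in serum-rich medium and can fuse into myotubes. In the mimic group they received a mirVana mimic of miR-27a-3p, a synthetic RNA that supplies the mature microRNA, and in the control group a scrambled sequence, both at 150 nM with Lipofectamine in high-glucose medium with serum. Cells were collected at 72 h, and per the labels transfection efficiency was estimated at 60%, so untransfected cells contribute to every value. The labels list 6 mimic samples and 4 scrambled samples, and untransfected cells were not analysed here.

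The 10 array files came from 5 positions of 1 slide, each scanned 2 times, although the labels describe an independent transfection for each replicate. The 2 files of a position were averaged, which left mimic arrays 1 to 3 and scrambled arrays 1 and 2. The share of spots well above background, controls left out, was 27% to 35.3% over the files, and their median intensity was 428 to 783. The scrambled arrays lay further apart (SD of their log2 differences over genes 0.565) than any pair of mimic arrays (0.323 to 0.442), and scrambled array 1 was nearer to mimic array 1 (0.499) and mimic array 2 (0.545) than to its own partner.

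Prostaglandins are short-lived lipid signals. A phospholipase A2 frees arachidonic acid from membranes, the cyclooxygenases Ptgs1 and Ptgs2 turn it into prostaglandin H2, and terminal synthases make prostaglandin E2, prostacyclin and related products, which act on G protein-coupled receptors of nearby cells. Ptgs1 is expressed steadily in many tissues, whereas Ptgs2 is an immediate-early gene induced by cytokines, growth factors and serum. In skeletal muscle, prostaglandins are known to act on myoblast proliferation, fusion and regeneration after injury.

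The sequences shown are that of the microRNA that was added and the promoter of Ptgs2, the gene with the largest difference of the 7 measured. The mature microRNA, from RefSeq (GRCm38.p6, chr8:84208727-84208747, plus strand), is given with its seed, bases 2 to 8, in capitals.
miR-27a-3p: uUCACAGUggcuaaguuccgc
The DNA complement of the seed, ACTGTGA, was found in 0 of the 14 probe sequences of these genes and in 455 of all 55681 probe sequences (0.817%). A probe covers 60 bases of a transcript, so these counts say nothing about the rest of it.

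The Ptgs2 promoter, from RefSeq (GRCm38.p6, chr1:150099781-150100060, plus strand), is given over 280 bases, of which 250 precede the annotated start. Capitals mark the C/EBP motif TTGCGCAA, at positions -69 to -62 from that start, and the overlapping run of the cAMP response half-site CGTCA (positions 14 to 18) and the E-box CACGTG (positions 17 to 22).
Ptgs2 promoter: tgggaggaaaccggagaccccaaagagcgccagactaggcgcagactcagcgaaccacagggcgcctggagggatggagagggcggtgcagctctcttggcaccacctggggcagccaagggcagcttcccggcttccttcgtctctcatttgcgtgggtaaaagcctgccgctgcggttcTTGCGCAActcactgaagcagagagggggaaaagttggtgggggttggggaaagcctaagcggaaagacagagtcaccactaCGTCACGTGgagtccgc
Searched on both strands, TTGCGCAA occurred in 0.183% of 32851 promoter windows of the RefSeq table, CACGTG in 7.15% and CGTCA in 20.8%. TATAAA (13.6% of windows) and the NF-kB consensus (8.46%) had no match in the Ptgs2 window. Bases outside the window were not searched, so a motif further from the annotated start would be missed. Among the other genes with a promoter entry, Ptges2 held CACGTG at -77 to -72, Ptges3 held CGTCA and the NF-kB consensus, and 1 of the 2 Pla2g4a windows held TATAAA on the strand opposite the gene. These are matches of letters and not measured binding sites.

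Levels below are log2 intensities minus the 75th percentile of the detected probes in that file, so 0 marks a bright probe. They compare arrays for 1 probe and not 1 gene with another. Differences are mimic minus scrambled sequence, and probe positions are those of the files, on mm9. In RNA from a whole culture, more cells that express a gene and more RNA per cell cannot be told apart.

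Of the 9 genes, 7 had a probe detected in 4 or more of the 10 files and entered the fit over all genes. In the mimic arrays Pla2g4a, Ptgs1 and Ptgs2, the genes of the first steps, had higher levels than in the scrambled arrays. Ptges2 and Ptgis, a terminal synthase each, had lower levels, while those of Ptges and Ptges3 overlapped between the groups. The receptors Ptger2 and Ptger4 were at or near background. In the fit over all genes, 1 of the 7 genes (Ptgs2) fell among the calls, which were 5.15% of the 13138 genes tested, and 0 of the 7 did when mimic array 1 was left out. The arrays of the groups did not overlap for 3 genes with higher values and 2 with lower ones, against 19.8% and 25.8% of all genes. The median difference was 0.25 over the 7 genes and -0.05 over all genes. Since the genes were chosen by this same comparison, these counts are no test of them and nothing is read from them.

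**Figure D1:**
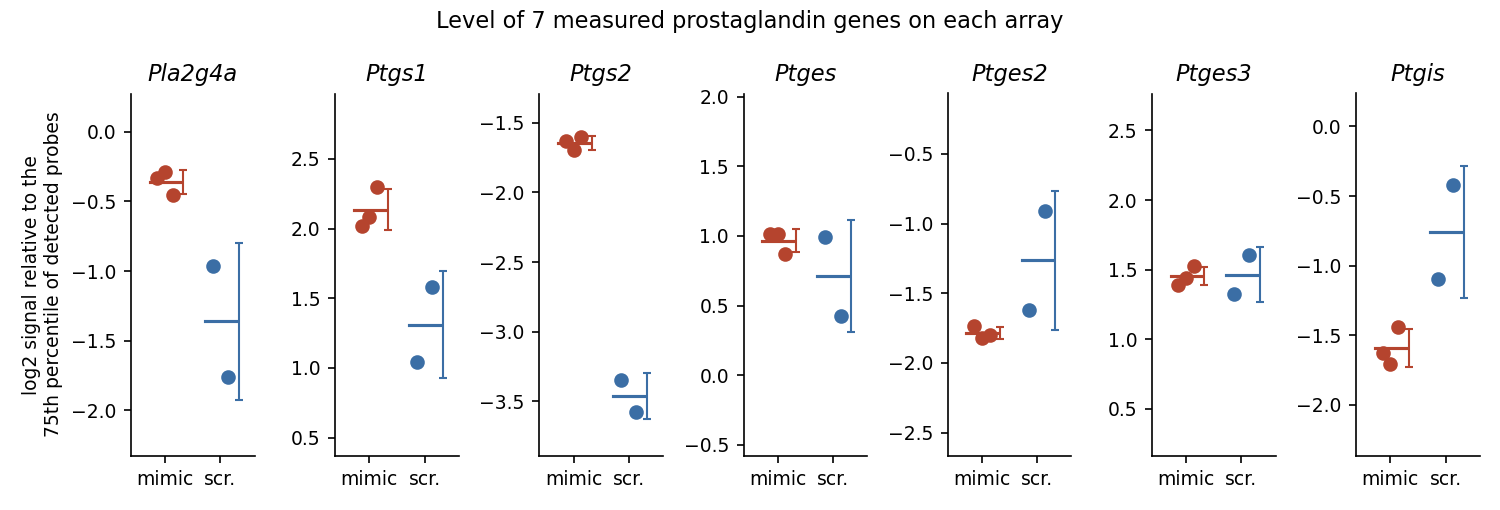
Level of each of the 7 measured genes (vertical axes, log2 intensity minus that file's 75th percentile, each panel spanning the same range) on the 3 mimic arrays and the 2 scrambled arrays (points), with group means (lines) and SD (bars beside them). Pla2g4a, Ptgs1 and Ptgs2 sit higher on the mimic arrays, Ptges2 and Ptgis sit lower, and the scrambled arrays spread more than the mimic arrays for every gene shown.

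Pla2g4a encodes cytosolic phospholipase A2, the calcium-regulated enzyme that frees arachidonic acid from membrane lipids. Its probe (chr1:151676814-151676873, minus strand) gave -0.33, -0.29 and -0.45 on the mimic arrays, against -0.96 and -1.76 on the scrambled arrays. All 3 mimic arrays lay above both scrambled arrays, with 0.51 between the nearest values. The means were -0.36 ± 0.09 (SD, n = 3) with the mimic and -1.36 ± 0.57 (SD, n = 2) with the scrambled sequence. The difference was 1.003 ± 0.25 (SE), a 2.005-fold higher signal. Its size depended on the scrambled arrays, being 1.40 when scrambled array 1 was left out and 0.60 when scrambled array 2 was.

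Pla2g4a and Ptgs2 are neighbours on chromosome 1. The RefSeq table (GRCm38.p6) places them on opposite strands with 0 protein-coding genes between them, and the 2 entries it lists in the interval are Gm19136 and Ptgs2os.

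Ptgs1 encodes COX-1. Its probe (chr2:36107644-36107703, plus strand) gave 2.02, 2.08 and 2.30 on the mimic arrays, against 1.04 and 1.58 on the scrambled arrays. The groups did not overlap, and mimic array 3 was the highest and scrambled array 1 the lowest. The means were 2.13 ± 0.15 (SD, n = 3) with the mimic and 1.31 ± 0.38 (SD, n = 2) with the scrambled sequence, a difference of 0.82 ± 0.21 (SE) or 1.77-fold. Without scrambled array 1 it was 0.55, and without scrambled array 2 it was 1.09 on the log2 scale.

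Ptgs2, read by a probe (chr1:151954744-151954803, plus strand) printed at 10 spots of every array, gave -1.63, -1.70 and -1.601 on the mimic arrays, against -3.35 and -3.58 on the scrambled arrays. The mimic arrays lay close together and 1.65 above the higher scrambled array. The means were -1.64 ± 0.05 (SD, n = 3) with the mimic and -3.46 ± 0.16 (SD, n = 2) with the scrambled sequence. The difference was 1.82 ± 0.14 (SE), or 3.53-fold, which ranked 65 of 13138 among all genes from the most raised down. Without scrambled array 1 it was 1.94, and without scrambled array 2 it was 1.70.

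The repeated spots show the precision within an array. In processed intensity, the 60 mimic spots ran between 583.9 and 1115, and the 40 scrambled spots, less 1 that was marked as an outlier, between 133.8 and 321.5. Every spot was well above background, and the lowest mimic spot lay above the highest scrambled spot. Within a file the spots varied by a coefficient of variation of 3.59% to 7.97% in the mimic files and 5.53% to 12.7% in the scrambled files. The 2 scans of a position differed by at most 0.15 on the log2 scale.

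**Figure D2:**
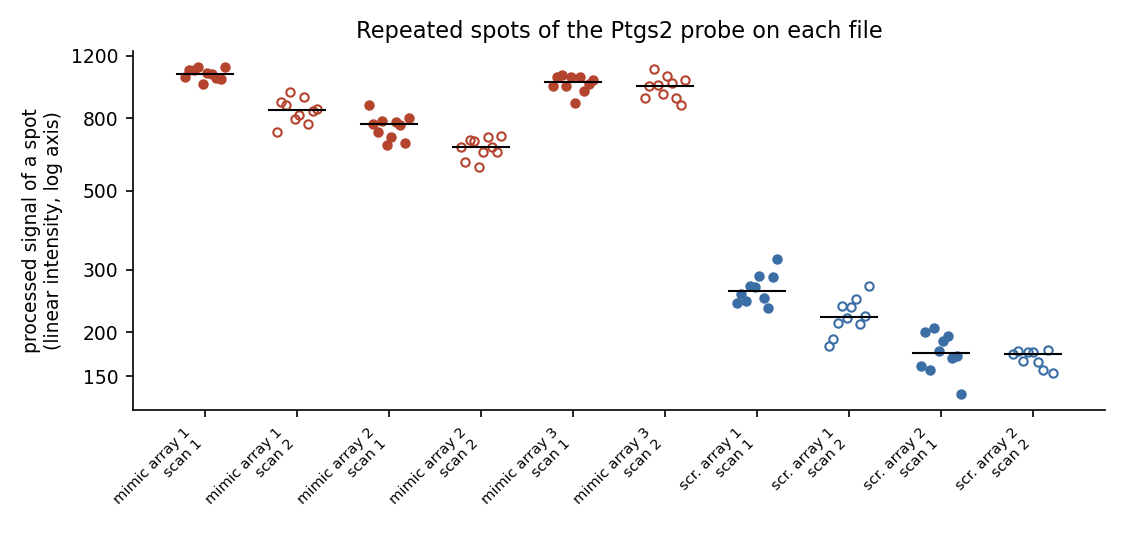
Processed intensity (vertical axis, log scale) of each repeated spot of the Ptgs2 probe in each of the 10 files, mimic files left of scrambled files. Filled points are the first scan and open points the second scan, and black lines are medians. The 6 mimic files have medians of 663.9 to 1069, above every spot of the 4 scrambled files, which have medians of 173.3 to 261.7.

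Ptges encodes microsomal prostaglandin E synthase 1, the inducible enzyme that is often raised together with Ptgs2 in inflammation. Its brighter probe (chr2:30744995-30745054, minus strand) gave 1.02, 1.01 and 0.87 on the mimic arrays, against 0.995 and 0.43 on the scrambled arrays. Scrambled array 1 lay among the mimic arrays, so the groups overlapped. The difference was 0.25 ± 0.20 (SE). It was 0.54 without scrambled array 1, and leaving out scrambled array 2 turned its sign, to -0.03. A second Ptges probe was well above background in none of the 10 files.

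Ptges2 encodes a second, membrane-associated prostaglandin E synthase that is expressed steadily. Its probe (chr2:32257968-32258027, plus strand) gave -1.74, -1.82 and -1.80 on the mimic arrays, against -1.62 and -0.91 on the scrambled arrays. The groups were apart by 0.12 only, and scrambled array 2 stood above the other 4 arrays. The means were -1.79 ± 0.04 (SD, n = 3) with the mimic and -1.26 ± 0.50 (SD, n = 2) with the scrambled sequence, a difference of -0.52 ± 0.23 (SE). Without scrambled array 2 it was -0.17, and without scrambled array 1 it was -0.88.

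Ptges3 encodes p23, a co-chaperone of Hsp90 that also acts as cytosolic prostaglandin E synthase. Its 4 probes on chromosome 10 were above background in all files. The brightest (chr10:127513950-127514009) gave 1.39, 1.44 and 1.53 on the mimic arrays, against 1.33 and 1.603 on the scrambled arrays. The mimic arrays lay between the scrambled arrays, and the difference was -0.01 ± 0.15 (SE). The other 3 probes gave differences of -0.18, -0.19 and -0.11.

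Ptgis encodes prostacyclin synthase, a cytochrome P450 best known from vessel walls. Its brighter probe (chr2:167028696-167028755, minus strand) gave -1.63, -1.71 and -1.44 on the mimic arrays, against -1.09 and -0.42 on the scrambled arrays. All 3 mimic arrays lay below both scrambled arrays, by 0.34 or more. The means were -1.59 ± 0.14 (SD, n = 3) with the mimic and -0.76 ± 0.48 (SD, n = 2) with the scrambled sequence. The difference was -0.83 ± 0.23 (SE), a 1.78-fold lower signal, and leaving out scrambled array 2 gave -0.50, and leaving out scrambled array 1 gave -1.17. A second Ptgis probe was above background in 0 files.

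Ptger2 and Ptger4 encode the prostaglandin E2 receptors EP2 and EP4, which raise cAMP. The Ptger2 probe (chr14:45622004-45622063) was well above background in 0 of 10 files, and the Ptger4 probe (chr15:5184419-5184478) in 1 of 6 mimic files and 0 of 4 scrambled files. No fold is given for either. Ptger2 was not detectable at this sensitivity, and Ptger4 hardly so, which does not show that they were absent.

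**Figure D3:**
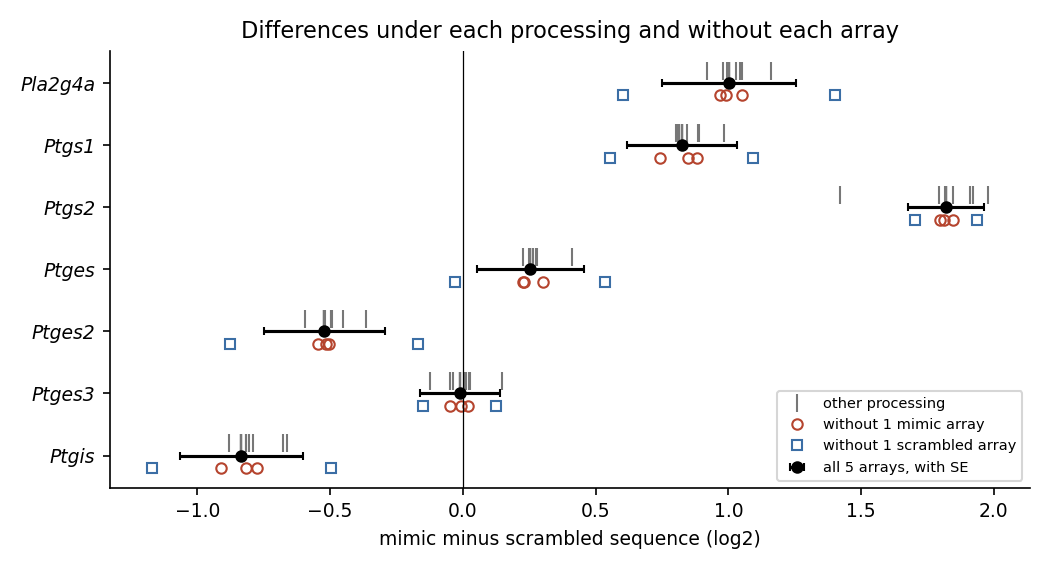
Difference of each gene (horizontal axis, mimic minus scrambled sequence, log2) with all 5 arrays (black points, bars are SE), under other ways of processing (grey ticks), and without 1 mimic array (open circles) or 1 scrambled array (open squares). Ptgs2 runs between 1.42 and 1.98 and lies above the other 6 genes, for which the scrambled array left out sets most of the range.

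Over 19 alternatives, of which 5 leave out an array each, the difference kept its sign in all 19 for Ptgs2, Pla2g4a, Ptgs1, Ptges2 and Ptgis. For these genes the mimic files did not overlap the scrambled files. Leaving out an array or using a single scan thus could not turn the sign, and nothing is read from that part. Ptgs2 ran between 1.42, with normexp background correction, and 1.98, with the percentile taken over all probes. Pla2g4a ran between 0.60 and 1.40, Ptgs1 between 0.55 and 1.09, Ptgis between -1.17 and -0.50, and Ptges2 between -0.88 and -0.17. Ptges kept its sign in 18 and Ptges3 in 12.

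Over the 5 arrays the levels of Pla2g4a and Ptgs1 had Pearson correlations of 0.92 and 0.87 with those of Ptgs2, and Ptges one of 0.61. Those of Ptgis and Ptges2 were -0.90 and -0.80, and that of Ptges3 was -0.12. These values describe 5 arrays that share a slide and fall into 2 groups, so they mostly restate the group difference. Among all genes tested, the patterns most like that of Ptgs2 were those of a non-coding transcript probe on chromosome 4 and of Jcad, Flt1, Ch25h and Ecrg4, all with r above 0.999. Flt1 encodes a receptor for vascular endothelial growth factor, and Ch25h encodes cholesterol 25-hydroxylase. Ch25h and Ecrg4 were above background in 0 of 4 scrambled files. The most opposed patterns were those of Cx3cl1 (r = -0.999), which encodes the chemokine fractalkine, Asph (-0.999), Thoc6 (-0.999), Cdc42ep1 (-0.999) and Mknk2 (-0.999).

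The rest of the pathway was followed in 98 genes of 9 lists, of which 57 were tested. By limma with Benjamini-Hochberg adjustment over all 13138 genes, 5 rose, 1 fell and 51 did not pass. An unadjusted p below 0.05 was reached by 17 of the 57, and by 3323 of all 13138 genes. Such p-values were thus common, and their counts in a list are not read as a result. Over all genes 368 (2.8%) rose and 308 (2.34%) fell. The median difference was 0.04 over the 57 genes, and -0.05 over all genes. Taking the percentile over all probes moved the median of all genes to 0.11 and the share of lower calls among all calls to 31.8%, against 45.6% here.

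The 5 genes called higher were Mgll and Dagla, of the supply of arachidonate, Hpgd and Ptgr1, of prostaglandin breakdown, and Areg, a growth factor. Il1r1, a cytokine receptor, was called lower. Mgll, Hpgd and Areg entered the fit through the mimic files, where they were detected in 6 of 6. They were detected in at most 1 of 4 scrambled files. The filter thus favoured a rise for these genes, so their adjusted p-values are given as a description. The size of their differences is uncertain as well. Among probes above background in all 10 files, the genes called higher by limma were 2, Dagla (adjusted p = 0.0307) and Ptgr1 (adjusted p = 0.0239). Il1r1 was among 3 called lower (adjusted p = 0.0205), and the others of these did not pass under the main processing.

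Of 15 tested genes of arachidonate supply, 2 rose and 0 fell, with a median of -0.04. Mgll encodes monoacylglycerol lipase, which splits 2-arachidonoylglycerol into arachidonic acid and glycerol. Its probe (chr6:88778292-88778351) gave -2.47, -2.58 and -2.85 on the mimic arrays, against -4.93 and -6.41 on the scrambled arrays. The groups lay far apart, but only 1 of 4 scrambled files had the probe above background. Of 4 Mgll probes, 1 was above background in enough files to enter the fit, so the difference rests on that probe. The fitted difference, against mostly undetected scrambled values, was 3.03 ± 0.43 (SE, adjusted p = 0.0192), and with normexp background correction it was 1.43 (adjusted p = 0.0102). The 2 scans of a position differed by up to 1.32 for this probe.

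Dagla encodes a diacylglycerol lipase that makes 2-arachidonoylglycerol. Its levels (chr19:10319766-10319825) were -2.18, -2.23 and -2.14 on the mimic arrays, against -3.07 and -3.81 on the scrambled arrays, which did not overlap. It rose by 1.26 ± 0.24 (SE, adjusted p = 0.0421). The largest difference below 0 in this list was that of Pla2g6, a calcium-independent phospholipase, at -0.97 ± 0.28 (adjusted p = 0.108). Anxa1, the glucocorticoid-induced annexin, had 0.74 ± 0.40 (adjusted p = 0.295). The secreted phospholipases Pla2g2a, Pla2g5 and Pla2g10, the cytosolic Pla2g4c and Pla2g4e, and Faah were above background in 0 files.

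Of 4 tested genes of clearance and transport, 2 rose and 0 fell, with a median of 0.70. Ptgr1, prostaglandin reductase 1, reduces 15-keto-prostaglandins and leukotriene B4 metabolites. Its levels (chr4:58979428-58979487) were 0.68, 0.59 and 0.50 on the mimic arrays, against -0.34 and -0.93 on the scrambled arrays, and the groups did not overlap. It rose by 1.23 ± 0.21 (SE, adjusted p = 0.0344).

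Hpgd, 15-hydroxyprostaglandin dehydrogenase, starts the breakdown of prostaglandin E2. Its probe (chr8:58798941-58799000) was above background in 6 of 6 mimic files and 0 of 4 scrambled files. Its levels were -4.44, -4.01 and -4.21 on the mimic arrays, against -5.23 and -5.24 on the scrambled arrays. Of 2 Hpgd probes, 1 was above background in enough files to enter the fit. The scrambled values are only a bound, so under the main processing Hpgd was at least 1.64-fold higher with the mimic. The limma fit used the undetected scrambled values themselves, so its p-value (adjusted p = 0.034) is a description and does not test the bound. For the bound, each scrambled array was given the dimmest signal well above background or the probe's own, whichever was higher. The mean of the mimic arrays was set against these values. The bound does not hold under every processing: with normexp background correction the difference was 0.36 on the log2 scale (limma adjusted p = 0.206). Abcc4, which exports prostaglandins, had a difference of 0.39 ± 0.18 (adjusted p = 0.233), and the uptake carrier Slco2a1 was above background in 0 files.

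Among the inducers of Ptgs2 and their receptors, 1 of 5 tested genes rose and 1 fell, with a median of 0.28. Areg encodes amphiregulin, a ligand of the EGF receptor. Its levels (chr5:91570090-91570149) were -3.31, -3.31 and -3.36 on the mimic arrays, against -5.08 and -5.42 on the scrambled arrays. The mimic arrays were nearly equal, and 1 of 4 scrambled files had the probe above background. The fitted difference, against mostly undetected scrambled values, was 1.92 ± 0.16 (SE, adjusted p = 0.00583), and with normexp it was 1.01 (adjusted p = 0.0124). The 2 scans of a position differed by up to 1.20 for this probe, a spread that the SE does not hold.

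Il1r1, the interleukin-1 receptor, had levels (chr1:40372667-40372726) of -2.93, -3.08 and -2.97 on the mimic arrays, against -2.16 and -1.81 on the scrambled arrays. All mimic arrays lay below both scrambled arrays, and it fell by 1.01 ± 0.16 (SE, adjusted p = 0.0291) on the log2 scale. Transcripts of the cytokines Il1a, Il1b, Il6 and Tnf, and of Tgfa, were above background in 0 files. The EGF receptor gene, Egfr, had 0.35 ± 0.28 (adjusted p = 0.448).

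Of 11 tested genes for transcription factors known to act on the Ptgs2 promoter, 0 passed the threshold in either direction by limma. An unadjusted p below 0.05 was reached by 3 of the 11, against 3323 of all 13138 genes. The median difference was -0.42. Cebpb and Cebpd, whose products recognise the C/EBP motif printed above, had differences of 0.18 ± 0.15 (adjusted p = 0.459) and 0.56 ± 0.19 (adjusted p = 0.142). Usf2, of the same list, had -0.65 ± 0.20 (adjusted p = 0.122). Usf1 was above background in 0 of 6 mimic files and 3 of 4 scrambled files, and Creb1 in 1 of 6 and 2 of 4, so neither was tested. Egr1 had -0.61 ± 0.15 (adjusted p = 0.0739), Jund -0.58 ± 0.26 (adjusted p = 0.231), and Rela, a subunit of NF-kB, 0.33 ± 0.27 (adjusted p = 0.465).

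Of 7 tested genes for proteins that bind the AU-rich Ptgs2 mRNA, 0 passed by limma, with a median of -0.06. An unadjusted p below 0.05 was reached by 1 of the 7, against 3323 of all 13138 genes. Hnrnpd, which encodes the mRNA decay factor AUF1, had -0.85 ± 0.18 (adjusted p = 0.0599), and Elavl1, which encodes the stabilising HuR, had -0.17 ± 0.19 (adjusted p = 0.608). Zfp36, the gene of tristetraprolin, was above background in 0 files.

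Of 7 tested cAMP response genes, 0 passed by limma, with a median of 0.10. An unadjusted p below 0.05 was reached by 4 of the 7, against 3323 of all 13138 genes. Sik1 had -0.94 ± 0.20 (adjusted p = 0.0568), Per1 0.78 ± 0.20 (adjusted p = 0.0901) and Nr4a2, detected in 3 of 4 scrambled files, 1.36 ± 0.41 (adjusted p = 0.118), so the sign differed among them.

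Of 4 other prostanoid synthases tested, 0 passed by limma and 0 had an unadjusted p below 0.05, with a median of -0.12. Ptgds, Hpgds, Tbxas1 and Akr1c18, of which the first pair make prostaglandin D2 and Tbxas1 makes thromboxane, were above background in 0 files. Among other receptors 1 of 8 could be tested, Ptgfrn, with 0.14 ± 0.19 (adjusted p = 0.659). Ptgfr was above background in 0 of 6 mimic files and 1 of 4 scrambled files, and Ptgir, the prostacyclin receptor, in 0 of 6 mimic files and 2 of 4 scrambled files. Of the lipoxygenase and leukotriene genes 3 were tested and 0 passed by limma, with a median of 0.37. An unadjusted p below 0.05 was reached by 1 of the 3, against 3323 of all 13138 genes. Alox5, the 5-lipoxygenase, had 0.53 ± 0.16 (adjusted p = 0.109).

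**Figure D4:**
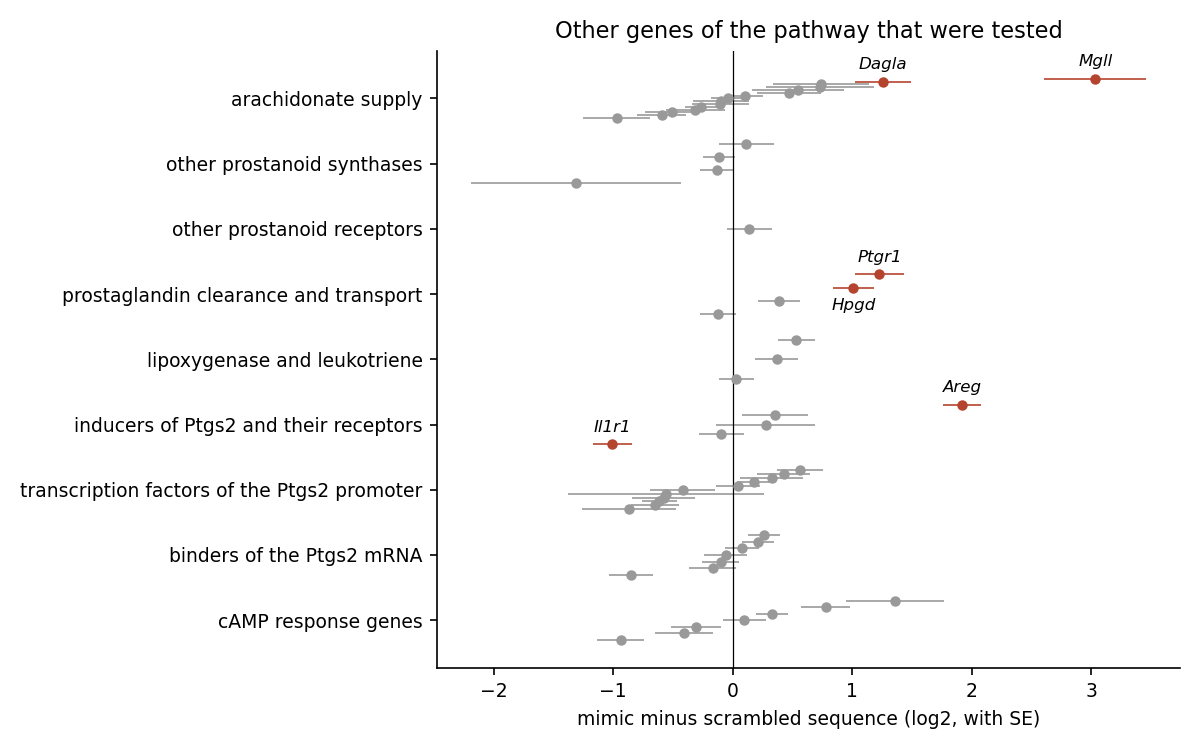
Difference of each of the 57 other pathway genes tested (horizontal axis, mimic minus scrambled sequence, log2, bars are SE), by list. Red points passed the threshold by limma: Mgll, Dagla, Ptgr1, Hpgd and Areg to the right of 0, and Il1r1 to the left.

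These 6 calls rest on few arrays. With mimic array 1 left out all 6 missed the threshold, with adjusted p of 0.0503 for Areg, 0.0847 for Mgll, 0.105 for Hpgd, 0.144 for Il1r1, 0.153 for Ptgr1 and 0.17 for Dagla. Except for Hpgd, the size of a difference moved more with the scrambled arrays. Without scrambled array 1 it was 3.77 for Mgll, 1.63 for Dagla, 1.53 for Ptgr1, 2.09 for Areg and -1.18 for Il1r1. Without scrambled array 2 it was 2.29 for Mgll, 0.89 for Dagla, 0.93 for Ptgr1, 1.75 for Areg and -0.83 for Il1r1. For Hpgd these values were 1.02 and 1.01, against 0.91 to 1.12 without a mimic array. Without mimic array 2 or without mimic array 3 only Areg passed (adjusted p = 0.0429 and 0.035), and with either scrambled array left out all 6 passed, except Hpgd in the absence of scrambled array 2 (0.0785). Without scrambled array 1 the number of pathway genes called was 14 higher and 10 lower.

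The cell type was checked by markers. Of 7 myoblast markers, Myod1, Des, Cdh15, Itga7 and Myog were above background in all 10 files, Myf5 in 1 mimic file and Pax7 in none. Their summed intensity, not scaled between files, was 35664 to 52015 in mimic files and 51086 to 72514 in scrambled files. Itga7 gave the largest part (23981 to 33720 and 26916 to 35836), with a scaled difference of -0.44 (limma adjusted p = 0.173). Myog, the myogenin gene of early differentiation, fell by 2.10 on the log2 scale (limma adjusted p = 0.00918). The part of differentiation in the values above was not tested.

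Other cell types were checked in the same way. Of 7 leukocyte markers, Ptprc, Adgre1 and Lyz2 were at background in all files. Itgam, Cd68 and Cd14 were above it in all files, and Csf1r in 5 of 6 mimic files and 4 of 4 scrambled files. The summed intensity was 2513 to 4299 in mimic files and 2304 to 3276 in scrambled files, mostly from Itgam (1882 to 3403 and 1739 to 2762). Of 5 endothelial markers, Kdr alone was above background (sums of 479.9 to 792.4 in mimic files and of 361.5 to 562.7 in scrambled files). Of 6 fibroblast markers, Thy1, Dpt and Tcf21 were at background. The sums were 7007 to 12137 in mimic files and 3789 to 7971 in scrambled files, nearly all from Col1a1. Pdgfra was above background in 1 of 6 mimic files and 3 of 4 scrambled files, with a difference of -0.96 (limma adjusted p = 0.0304). All 5 adipocyte markers were at background.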

How the data were processed

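The deposited scanner files hold linear spot intensity, per the file headers the background-subtracted processed signal of Agilent Feature Extraction 12.0.0.7, with probe positions on mm9; per the submitters' processing notes the version was 10.7.3.1. TRIzol-extracted RNA was amplified and labelled with Cy3, per the labels' protocols. A deposited table of intensity per probe was linear and not centred, with column medians of 192.1, 275.5, 260, 214.7, 252.7 and 294.1 for mimic files 1 to 6 and 245, 244.8, 202.9 and 214.9 for scrambled files 1 to 4. Its rule for emptying 57.1% to 63.1% of the probes is unknown, so only an alternative uses it.

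Control and outlier spots were left out, and the 2 files of a position were averaged: mimic replicates 1 and 4, 2 and 5, 3 and 6, and scrambled replicates 1 and 3, 2 and 4. From log2 intensity each file's 75th percentile over the 13029 probes above background in all files was subtracted. Probes above background in at least 4 of 10 files were kept (16786), and the brightest probe stood for a gene. Of 13188 genes, 50 lacked a value on an array and 13138 were tested with limma 3.58.1 (R 4.3.3) at an adjusted p of 0.05, after a check on simulated data. The p-values measure the spread between 5 arrays, which may be partly technical, and that number limits the precision. The 10 files as separate arrays, other scans, corrections, scalings, filters and probe rules were alternatives.

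Probes were named through the RefSeq table of GRCm38.p6 by accession (28026), symbol (3418) or older symbol (295), or kept the file's name (23942). The 9 genes, the 9 lists and the tests were chosen with earlier results of these data known. The text names all 9 genes, every pathway gene past the threshold under the main processing, and the 5 genes most and least correlated with Ptgs2. Other genes of the lists were picked as examples after their values were seen. Of the listed genes, Ptgr3 matched 0 probes, and Alox5ap was above background in all files but had no unmarked value on 1 scrambled array. RefSeq promoters were matched for 8 of the 9 genes, all but Ptgis.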

Additional observations from a re-analysis of the deposited data

How the results depend on the processing

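The fit called 676 genes, 5 other pathway genes higher and 1 lower. With the 10 files as separate arrays it called 4512 genes, 13 pathway genes higher and 11 lower, and 673 of the 676 calls were shared in direction. With the replicate number as a block as well, it called 1950, 8 and 5. The numbers do not pair the samples: deviations of same-numbered files correlated at 0.382, -0.0356, -0.351 and -0.103, and 1 of 4 correlated best with its own number. With scan as a block and position as a random block (correlation 0.827) it called 1459 genes, with 5 pathway genes lower. In that fit Areg (adjusted p = 0.0577), Mgll (adjusted p = 0.0684) and Hpgd (adjusted p = 0.0721) missed the threshold. The second scan alone gave 2 higher, the deposited values gave 202 genes, 2 higher and 0 lower, and probes above background in all files 2 higher and 3 lower. Without a filter on dim probes the counts were 17, 0 and 0. Normexp gave 2 lower, as did eBayes with trend and robust fitting. Leaving out 1 array at a time gave 47 to 4367 genes, 0 to 14 pathway genes higher and 0 to 10 lower, with the lowest count of genes without mimic array 1 and the highest without scrambled array 1. With a scrambled array left out, the lone one is taken to vary like the mimic arrays.

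Ptgs2 differed by 1.82, and by 1.42 with normexp, 1.98 with the percentile over all probes, and 1.70 to 1.94 with 1 array left out. Having been chosen by this difference, it has no count of passes. Of the tested pathway genes, Areg passed the threshold in 15 of 18, Il1r1 in 14 of 19, Ptgr1 in 13 of 19, Dagla in 12 of 19, Mgll in 12 of 18 and Hpgd in 8 of 18. The alternative limited to probes above background in all files did not include Areg, Mgll and Hpgd, hence their 18. These 6 genes kept their sign throughout. Their mimic and scrambled files did not overlap, so leaving out an array or using a single scan could not turn it. Without a mimic array, or without the filter, fewer samples or more dim probes entered the fit; the cause of the other changes was not tested. The dim scrambled signals of Hpgd, Mgll and Areg limit the size of their differences. Their passes are given as a description, because the filter took them in through the mimic files.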
